A study of Mus musculus with 22 samples.

Results

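The comparison described here is the shift that ethanol produced in the ratio of ribosome-bound RNA to total RNA in the mouse prefrontal cortex (PFC). For each animal and transcript, the log2 CPM (reads counted for a transcript, scaled to a library size shared by all libraries) of the total-RNA library (labelled INPUT) were subtracted from those of the translating ribosome affinity purification library (TRAP, labelled Pull-Down), and the ratios of 4 ethanol (EtOH) animals were set against those of 3 Control animals. These 7 animals gave 14 of the 22 libraries in the series, and the other 8 libraries, from 4 animals given EtOH + ABT-888, entered the same fit and are given beside the EtOH values. All 11 mice were transgenic males of 8 to 12 weeks on a C57BL/6J background. They carried tetO-EGFP/Rpl10a, a green fluorescent tag on a protein of the large ribosomal subunit, and CaMKIIα-tTA, the transactivator that switches the tag on in cells where the CaMKIIα promoter is active. Control mice (animals 1, 4 and 7) received normal saline intraperitoneally 2 times a day for 4 days, EtOH mice (animals 2, 5, 8 and 9) received ethanol on the same schedule to a daily dose of 2 g/kg, and EtOH + ABT-888 mice (animals 3, 6, 10 and 11) also received the poly(ADP-ribose) polymerase inhibitor ABT-888 at 25 mg/kg on the last day. The PFC was collected 2 hours after the last injection, and a small part of each homogenate was kept as total-RNA before the tagged ribosomes were pulled down.

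A messenger RNA is bound by ribosomes while it is translated, so the RNA that comes down with a tagged ribosomal protein is read as ribosomal engagement (RE) in the cells that carry the tag. The total-RNA of the same homogenate holds RNA from every cell of the tissue, whether or not it is on a ribosome. A ratio of the pools therefore moves when a transcript changes in tagged cells only, when it changes in the other cells, and when its binding to ribosomes changes, and in bulk samples fewer cells of a type and less RNA per cell cannot be told apart.

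The EtOH and Control TRAP libraries held 9604310 to 22002618 counted reads and the total-RNA libraries 22132534 to 31606619, and 14072 of the 39056 genes in the table were tested. Across all of these transcripts, the ratios of the Control animals correlated with one another at r of 0.857 to 0.884, those of the EtOH animals at 0.787 to 0.884, and Control with EtOH at 0.741 to 0.864, as a description over genes of libraries that share a pull-down. The median SD of a transcript's log2 ratio was 0.20 among the Control animals and 0.307 among the EtOH animals.

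The labelled cell type was checked against its markers first. In preliminary pull-downs, the study reported Egfp and CamKIIα raised in TRAP against total-RNA, and the astrocyte marker S100b and a microglial marker reduced. The values here are those of the deposited libraries. Pull-down from excitatory cortical neurons would be read from a raised ratio of their defining transcripts, but the median log2 ratio of 12 excitatory neuron markers was -1.26, -1.23 and -0.93 in the Control animals and -1.41, -2.98, -2.53 and -0.92 in the EtOH animals. In the Control animals 8 of the 12 were lower in TRAP than in total-RNA at an adjusted p under 0.05 (26.5% of all transcripts were lower and 26.5% higher by that test), among them Slc17a7 (-1.11), the vesicular glutamate transporter of cortical neurons, and Neurod6 (-2.23). Only Nrgn and Baiap2 were higher, at 1.20 and 1.26. The log2 ratio of Camk2a itself, whose promoter drives the tag, was -0.24, -0.14 and -0.06 in the Control and 0.16, -0.15, 0.12 and 0.26 in the EtOH animals, close to 0 in all 7. The summed CPM of the 12 markers, which the abundant Camk2a, Nrgn and Baiap2 also enter, was 5651 to 7065 in Control TRAP and 4816 to 5716 in Control total-RNA.

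The markers of striatal projection neurons, a population of the neighbouring striatum, were raised in the pull-down. All 12 were higher in TRAP in the Control animals, with a median log2 ratio of 2.98, 2.97 and 2.59 in the Control animals and 2.47, 2.12, 2.95 and 2.52 in the EtOH animals. Their summed CPM was 13570 to 16200 in Control TRAP against 1805 to 2275 in Control total-RNA. The cortical layer markers did not follow the 12 excitatory neuron markers. Of 13 deep layer markers 7 were higher and 5 lower in Control TRAP, with medians of 0.35, 0.78 and 0.47 and a summed CPM of 1161 to 1553 in Control TRAP against 562.1 to 648.2 in Control total-RNA. Of 10 upper layer markers 3 were higher and 4 lower, with medians of 0.00, -0.12 and 0.06. Glial and vascular markers were low in every pull-down, and 13 of 14 astrocyte, 15 of 15 microglia, 14 of 14 oligodendrocyte and 15 of 16 endothelial and mural markers were lower in Control TRAP. Because the lists of cortical excitatory neurons differed among themselves and the striatal list was higher than any of them, the ratio is called here a ratio of TRAP to total-RNA and is not given a cell type. Among the EtOH animals, animal 2 kept the most glial RNA, with a median astrocyte log2 ratio of -1.95 against -4.16 to -2.98 in the others and -3.54 to -2.87 in the Control animals. Of the EtOH + ABT-888 animals, animals 3 (-2.23) and 11 (-2.49) were likewise high, animal 11 above animal 3 for oligodendrocyte markers (-1.70 against -1.84) and for endothelial and mural markers (-1.57 against -2.32), and animal 6 had the shallowest TRAP library, at 6570957 counted reads. Calls were also made without animals 2, 3 and 6, with animal 11 kept.

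**Figure D1:**
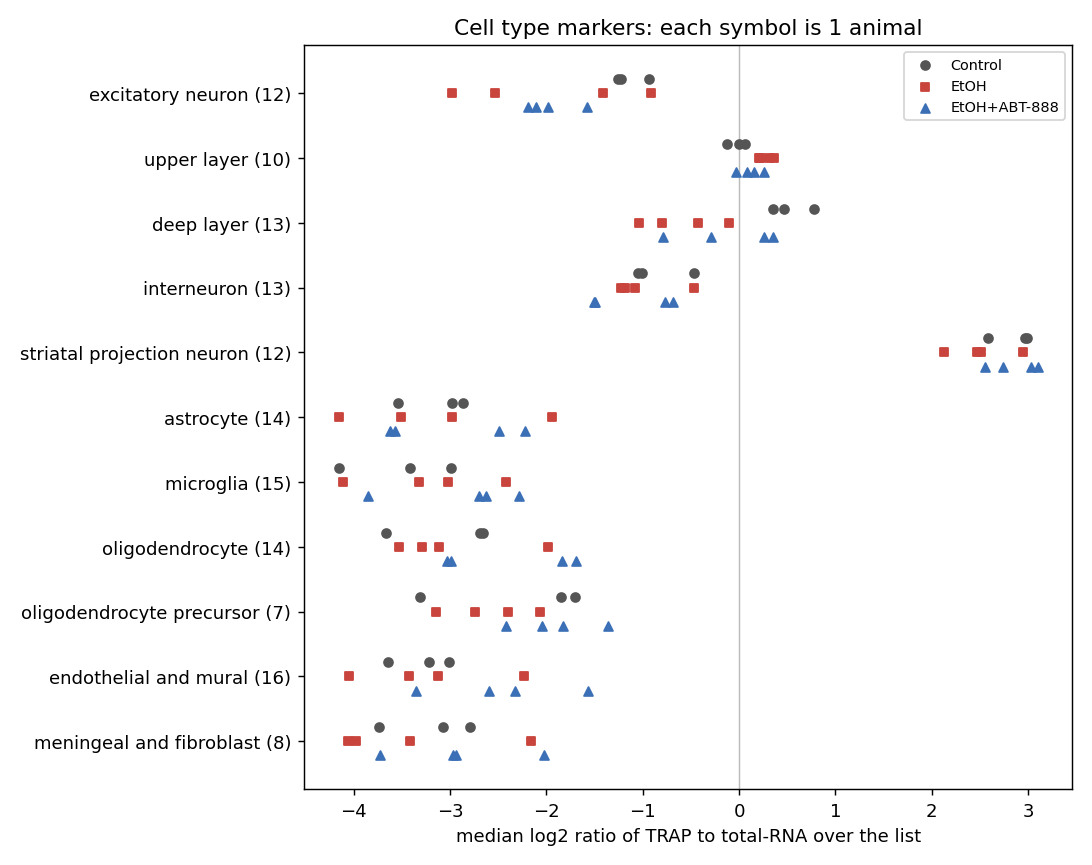
Median log2 ratio of TRAP to total-RNA over each list of cell type markers (x axis), with the number of markers tested in parentheses and 1 symbol for each animal by treatment. Striatal projection neuron markers sit between 2.12 and 3.10 in all 11 animals, and the excitatory neuron markers at or below -0.92.

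Which transcripts changed their ratio with EtOH was tested as the interaction of treatment with RNA pool in edgeR's quasi-likelihood test, with the animal as a block and Benjamini-Hochberg adjustment. Of the 14072 transcripts, 14 passed an adjusted p of 0.05 (0.0995%), 9 with a higher and 5 with a lower ratio in EtOH animals. Without adjustment 634 were higher (4.51%) and 854 lower (6.07%) at p under 0.05. The ratios of all 4 EtOH animals lay above those of all 3 Control animals for 852 transcripts (6.05%) and below them for 942 (6.69%), and all 14 calls were among these. The median shift over all transcripts was -0.02 on the log2 scale, and the median size of the 14 called shifts was 1.32. All 14 are protein-coding. Each value below is a log2 ratio of TRAP to total-RNA unless it is given as CPM, and each shift is the EtOH minus Control difference of that ratio from the fit, with its standard error (SE; 3 Control and 4 EtOH animals). Coordinates are those of mm10.

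**Figure D2:**
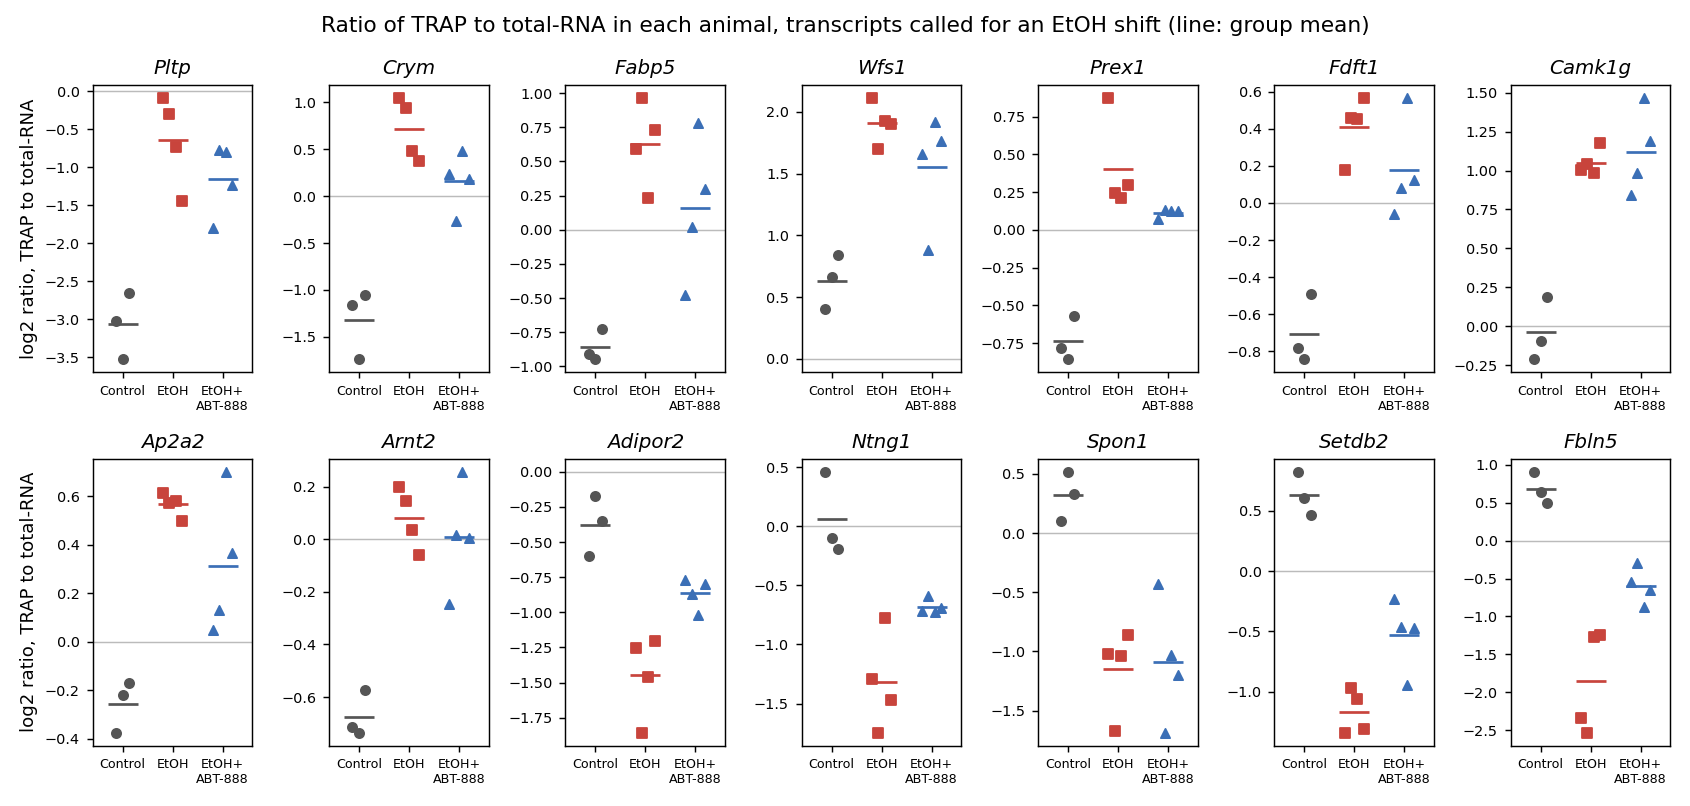
Log2 ratio of TRAP to total-RNA (y axis, scaled to each transcript) in every animal for the 14 transcripts with an adjusted p under 0.05, by treatment, with a line at the group mean. In each panel the 4 EtOH symbols stand clear of the 3 Control symbols, and the fitted EtOH + ABT-888 shift has the same sign as that of EtOH.

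Crym showed the lowest adjusted p of all transcripts. It encodes crystallin mu, a cytosolic protein that binds thyroid hormone, and lies on the minus strand of chr7:120186380-120202111 (ENSMUSG00000030905.5). Its log2 ratio was -1.16, -1.74 and -1.05 in Control animals 1, 4 and 7 and 1.04, 0.94, 0.48 and 0.37 in EtOH animals 2, 5, 8 and 9. In the Control animals Crym was thus lower in TRAP than in total-RNA, and in every EtOH animal it was higher. The shift was 2.03 ± 0.22, a ratio 4.08 times that of the Controls (adjusted p = 0.00228). TRAP carried the change, at 19.4 to 35.3 CPM in Control and 83.8 to 194.5 CPM in EtOH animals, while total-RNA held 64.8 to 76.2 and 64.7 to 99.7 CPM. Crym was the only one of the 14 whose call held under all 19 other settings of the fit, with shifts of 1.82 to 2.16. The other genes of thyroid hormone handling are given further below.

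Of the lists used here, that of brain lipoprotein and lipid transfer held 1 call, Pltp. It encodes phospholipid transfer protein, which moves phospholipids between lipoproteins (chr2:164839518-164857711, minus strand). The animals stood at log2 ratios of -3.02, -3.52 and -2.65 in the Control and -0.09, -0.29, -0.73 and -1.44 in the EtOH animals, a shift of 2.46 ± 0.37 (adjusted p = 0.0177). Both pools moved, in opposite directions: TRAP went from 2.16 to 3.02 CPM in Control to 4.56 to 11.7 CPM in EtOH animals, and total-RNA from a range of 19.2 to 25.3 CPM in Control to one of 11.3 to 12.6 CPM in EtOH animals. Even after this rise the ratio remained under 0 in all 4 EtOH animals, so Pltp was still lower in TRAP than in total-RNA.

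Fabp5, a cytosolic carrier of fatty acids (chr3:10012548-10016607, plus strand), had log2 ratios of -0.91, -0.95 and -0.73 in the Control and 0.59, 0.96, 0.23 and 0.73 in the EtOH animals. The ratio changed sign between the groups, with a shift of 1.49 ± 0.25 (adjusted p = 0.0316). Fdft1 encodes squalene synthase, the enzyme that commits isoprenoids to sterol synthesis (chr14:63145150-63179578, minus strand). Its log2 ratios were -0.78, -0.84 and -0.49 in the Control and 0.17, 0.45, 0.45 and 0.57 in the EtOH animals, and its shift was 1.12 ± 0.16 (adjusted p = 0.0177). For both, TRAP moved and total-RNA did not pass its own test: Fabp5 went from a range of 23.8 to 27.8 CPM in Control to one of 55.9 to 85.2 CPM in EtOH animals in TRAP and Fdft1 from a range of 41.5 to 59.7 CPM in Control to one of 107.9 to 134.1 CPM in EtOH animals.

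Adipor2, a receptor for the fat-derived hormone adiponectin (chr6:119353150-119417704, minus strand), had a lower ratio in EtOH animals. Its log2 ratio was -0.60, -0.17 and -0.35 in the Control and -1.25, -1.86, -1.46 and -1.21 in the EtOH animals, a shift of -1.07 ± 0.17 (adjusted p = 0.0272). Here the total-RNA pool rose, from a range of 43.4 to 53 CPM in Control to one of 66.2 to 95.4 CPM in EtOH animals, and TRAP, at 34.9 to 39.7 CPM in Control and 24.1 to 40.0 CPM in EtOH animals, overlapped. Exons of Pltp overlap those of Ctsa on the other strand, and exons of Fdft1 those of Ctsb. The strand setting of the counting is not given in the sources used here, so reads of these pairs may not have been told apart.

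The 5 other calls with a higher ratio were Wfs1, Camk1g, Prex1, Arnt2 and Ap2a2. Wfs1 encodes wolframin, a membrane protein of the endoplasmic reticulum with a role in calcium balance and in the stress response of that organelle (chr5:36966104-36989205, minus strand). For this transcript the log2 ratio was 0.40, 0.66 and 0.84 in the Control and 2.11, 1.70, 1.92 and 1.90 in the EtOH animals, a shift of 1.27 ± 0.20 (adjusted p = 0.0272). Wfs1 rose in both pools and more so in TRAP, from a range of 139.8 to 194.9 CPM in Control to one of 454.2 to 1014 CPM in EtOH animals there and from a range of 95.9 to 108.7 CPM in Control to one of 121.9 to 256.1 CPM in EtOH animals in total-RNA. The largest TRAP values, 1014 and 832.8 CPM, belonged to EtOH animals 2 and 5.

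Camk1g, a calcium/calmodulin-dependent kinase of the CaMKI family (chr1:193346346-193370298, minus strand), had log2 ratios of -0.21, -0.09 and 0.19 in the Control and 1.00, 1.04, 0.99 and 1.18 in the EtOH animals. The Control values lay on both sides of 0 and the EtOH values close together, with a shift of 1.09 ± 0.17 (adjusted p = 0.0197). Prex1 encodes an exchange factor that activates the small GTPase Rac (chr2:166566342-166713832, minus strand). Its log2 ratio was -0.78, -0.85 and -0.57 in the Control and 0.87, 0.25, 0.21 and 0.30 in the EtOH animals, with animal 2 far above the other EtOH animals. The shift of Prex1 was 1.14 ± 0.16 (adjusted p = 0.0136), and it came with a fall in total-RNA, from a range of 144.7 to 180.9 CPM in Control to one of 88.2 to 97.6 CPM in EtOH animals, while TRAP did not pass its own test.

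Arnt2, a basic helix-loop-helix partner of several transcription factors in neurons (chr7:84246278-84410176, minus strand), had the smallest called shift, 0.75 ± 0.13 (adjusted p = 0.0376). The animals stood at log2 ratios of -0.71, -0.74 and -0.57 in the Control and 0.20, 0.15, 0.04 and -0.06 in the EtOH animals. Ap2a2 encodes a subunit of the AP-2 adaptor of clathrin-mediated endocytosis (chr7:141562173-141633011, plus strand). Its log2 ratio of -0.38, -0.22 and -0.17 in the Control animals stood against 0.61, 0.57, 0.58 and 0.50 in the EtOH animals, a shift of 0.82 ± 0.14 (adjusted p = 0.0455). Both rose in TRAP, Arnt2 from a range of 205.8 to 217.9 CPM in Control to one of 263.3 to 395.6 CPM in EtOH animals and Ap2a2 from a range of 231.0 to 263.0 CPM in Control to one of 387.7 to 557.9 CPM in EtOH animals. Each overlaps exons of a gene on the other strand (Gm30873 and Gm16982).

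Among the calls with a lower ratio, Fbln5 belonged to the extracellular matrix list and Ntng1 to the axon guidance list, and Spon1, Setdb2 and Adipor2 to neither. Fbln5 encodes fibulin-5, a secreted protein of elastic fibres (chr12:101746565-101819055, minus strand). Its log2 ratio was 0.91, 0.64 and 0.50 in the Control and -2.34, -2.54, -1.27 and -1.24 in the EtOH animals, the largest called shift at -2.55 ± 0.38 (adjusted p = 0.0177). As with Pltp, both pools moved apart: TRAP fell from a range of 6.43 to 8.86 CPM in Control to one of 1.49 to 2.58 CPM in EtOH animals and total-RNA rose from a range of 4.53 to 4.73 CPM in Control to one of 5.29 to 10.2 CPM in EtOH animals. Fbln5 is also named by the study, which chose it on these samples. The study's text prints Pltp6, a name that no gene of the table carries and that was taken here as Pltp. Neither call is independent of that choice.

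Spon1, the secreted adhesion protein F-spondin (chr7:113765998-114043370, plus strand), had log2 ratios of 0.11, 0.52 and 0.33 in the Control and -1.02, -1.67, -1.04 and -0.86 in the EtOH animals. Every Control ratio was above 0 and every EtOH ratio below it, with a shift of -1.47 ± 0.25 (adjusted p = 0.0351). Ntng1 encodes netrin-G1, a membrane-anchored relative of the netrins (chr3:109780040-110144011, minus strand). Its log2 ratios were 0.46, -0.10 and -0.19 in the Control and -1.29, -1.75, -0.78 and -1.47 in the EtOH animals, a shift of -1.36 ± 0.23 (adjusted p = 0.0376). Both fell in TRAP alone, Spon1 from a range of 103.4 to 132.7 CPM in Control to one of 38.2 to 58.8 CPM in EtOH animals and Ntng1 from a range of 22.5 to 25 CPM in Control to one of 5.43 to 15 CPM in EtOH animals.

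Setdb2, which encodes a member of the SET domain family of histone methyltransferases (chr14:59402009-59440884, minus strand), was the second transcript by p. For this transcript the log2 ratio was 0.82, 0.61 and 0.46 in the Control and -1.34, -0.97, -1.06 and -1.31 in the EtOH animals, a shift of -1.80 ± 0.23 (adjusted p = 0.00933). TRAP was level, at 8.03 to 10.0 CPM in Control and 6.73 to 13 CPM in EtOH animals. The move was in total-RNA, which went from 5.25 to 6.56 CPM to 16.8 to 25.6 CPM.

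The 14 calls therefore divided by the pool in which EtOH changed the level. By the test within each pool (737 transcripts, 5.24%, called in TRAP and 2482, 17.6%, in total-RNA), Crym, Fabp5, Fdft1, Camk1g, Arnt2, Ap2a2, Spon1 and Ntng1 passed in TRAP alone. Setdb2, Adipor2 and Prex1 passed in total-RNA alone, and Pltp, Fbln5 and Wfs1 in both pools. These tests use the same libraries as the shift and describe it without adding evidence for it.

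**Figure D3:**
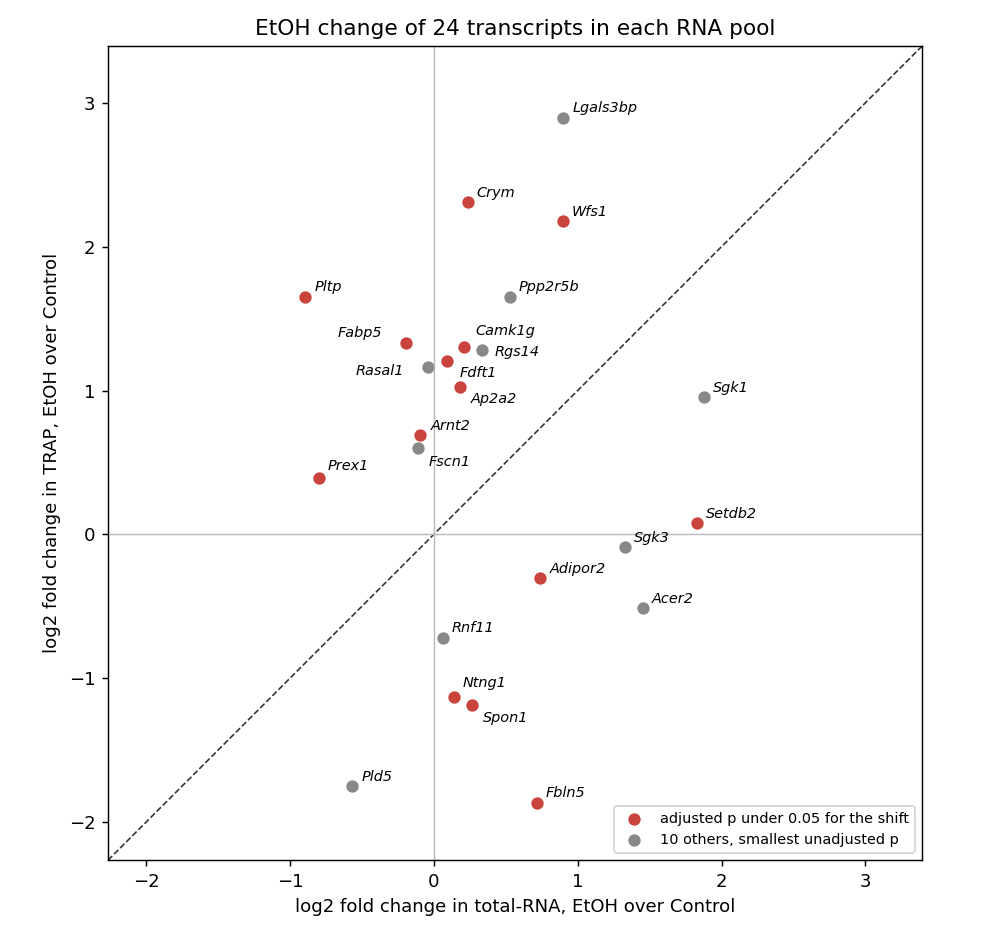
Log2 fold change of EtOH over Control in total-RNA (x axis) and in TRAP (y axis) for the 14 called transcripts (red) and 10 further named transcripts (grey); the dashed line marks an equal change in both pools. Crym, Fdft1 and Spon1 lie near 0 on the x axis, Setdb2 and Sgk3 near 0 on the y axis, and Pltp and Fbln5 in the quadrants where the pools moved in opposite directions.

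The calls depended on the few animals in each group. Without Control animal 1, or without Control animal 4, Crym was the 1 transcript still called. Without EtOH animal 5 the count was 3 (Crym, Setdb2 and Prex1), without Control animal 7 it was 6, and without EtOH animal 2 it was 9. With animals 2, 3 and 6 left out, 21 transcripts were called, 12 of them among the 14. With the mean level of the glial and vascular markers of each library as a covariate all 14 were called among 44, and with that of the excitatory neuron markers 4 of the 14 (Crym, Setdb2, Prex1 and Wfs1) were called among 8. In the last of these fits the shifts of the 10 others stayed close in size, for instance 1.11 for Camk1g, 1.40 for Fabp5, 2.16 for Pltp and -2.32 for Fbln5, with Spon1 (-1.12) and Adipor2 (-0.85) the most reduced. No direction of the 14 changed in any of these fits.

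A further 10 protein-coding transcripts with the next smallest p and ratios that did not overlap are named here without a call, taken from both directions in turn. Those with a higher ratio were Lgals3bp, a secreted binding protein of galectin-3 (1.99 ± 0.36, adjusted p = 0.0568), Ppp2r5b, a regulatory subunit of protein phosphatase 2A (1.09 ± 0.20), Rgs14, a regulator of G protein signalling (0.92 ± 0.17), Rasal1, a Ras GTPase-activating protein (1.15 ± 0.22), and Fscn1, the actin-bundling protein fascin (0.70 ± 0.13). Those with a lower ratio were Acer2, a ceramidase of the Golgi (-1.98 ± 0.36), the related kinases Sgk1 (-0.94 ± 0.18) and Sgk3 (-1.40 ± 0.27), the RING finger protein gene Rnf11 (-0.81 ± 0.16) and Pld5, of the phospholipase D family (-1.20 ± 0.24). Their adjusted p ranged from 0.0568 to 0.106. Exons of Ppp2r5b overlap those of Gpha2 on the other strand.

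Lgals3bp had log2 ratios of -3.36, -2.58 and -1.88 in the Control and -0.38, -0.47, -1.18 and -0.06 in the EtOH animals, from 0.85 to 2.33 CPM in Control TRAP to 6.83 to 20.8 CPM in EtOH TRAP. In Acer2 the log2 ratio was 1.73, 1.26 and 1.75 in the Control and -0.38, -0.79, -0.22 and -0.15 in the EtOH animals. The Acer2 ratio was above 0 in all 3 Control animals and below 0 in all 4 EtOH animals. The level in TRAP was 9.86 to 13.2 CPM in Control and 6.22 to 9.48 CPM in EtOH animals, and total-RNA rose from a range of 3.12 to 4.08 CPM in Control to one of 7.42 to 11.3 CPM in EtOH animals. For Sgk3 the log2 ratio was 0.61, 0.75 and 0.45 in the Control and -0.65, -0.62, -0.32 and -1.63 in the EtOH animals, again with a rise in total-RNA (14 to 19.6 CPM in Control and 27.1 to 56.5 CPM in EtOH animals) and 21.4 to 26.9 CPM in Control and 18.2 to 27.5 CPM in EtOH TRAP.

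Transcripts that glucocorticoid hormone is known to induce, through a receptor that binds DNA and raises transcription, had a lower median ratio in EtOH animals. None of the 25 members of this list passed the adjusted threshold for the shift in edgeR, 1 was higher and 12 lower at an unadjusted p under 0.05 (background 4.51% and 6.07%), and the median shift was -0.47 against -0.02 over all transcripts. With DESeq2, 0 were higher and 11 lower at that unadjusted p, and with the excitatory marker covariate 2 and 7. The median log2 ratio of the list was -0.67, -0.57 and -0.03 in the Control and -0.77, -1.49, -1.26 and -1.13 in the EtOH animals, with no overlap. In the test within each pool, all 25 were called higher in total-RNA, with a median log2 fold change of 1.20, and 10 in TRAP, with a median of 0.98 (17.6% and 5.24% of all transcripts were called in these pools, in either direction). Total-RNA is the denominator of the ratio, and the list was drawn up with earlier results of these data known. Without EtOH animal 5 the median shift was -0.29.

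Sgk1, a serine/threonine kinase and a classic target of the hormone, had a log2 ratio of 0.07, 0.38 and 0.55 in the Control and -0.43, -0.97, -0.30 and -0.73 in the EtOH animals. It rose from a range of 52.5 to 63.9 CPM in Control to one of 195.2 to 264.0 CPM in EtOH animals in total-RNA and from a range of 67.2 to 76.7 CPM in Control to one of 117.2 to 161.5 CPM in EtOH animals in TRAP. Both pools rose, total-RNA by more, and the ratios of the groups did not overlap. Fkbp5, a chaperone partner that restrains the receptor, showed a shift of -0.74 ± 0.17 (unadjusted p = 4.99e-04) and Ddit4, an inhibitor of mTOR signalling, one of -0.98 ± 0.21 (unadjusted p = 2.92e-04). The lowest shifts among members at an unadjusted p under 0.05 were those of Map3k6 (-1.61 ± 0.55) and the small GTPase gene Arl4d (-1.31 ± 0.33). Arl4d had log2 ratios of 2.07, 2.17 and 2.00 in the Control and 1.34, 0.48, 0.28 and 1.01 in the EtOH animals, all still above 0. Shifts were above 0 for 9 of the 25, and the 1 of these at an unadjusted p under 0.05 was Mt1, a metal-binding metallothionein, at 0.83 ± 0.36 (unadjusted p = 0.0381), whose log2 ratio was -0.73, -0.77 and -0.03 in the Control and 1.44, -0.20, 0.02 and 0.07 in the EtOH animals. The highest of these values was that of animal 2, and the groups overlapped.

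Promoter windows are shown for the members that hold the DNA string to which the receptor binds. In RefSeq promoters of GRCm38.p6, from 250 bases before to 50 after each start, the palindrome of the glucocorticoid response element, GNACA and TGTNC with 3 bases between them, was searched on both strands. It was found in 3 of 22 matched members (13.6%), in 0.421% of 10451 matched tested genes and in 0.475% of all 32851 promoter windows. These are the 3 windows of 30 bases, 5′ to 3′ on the strand of the gene, with the match in capitals.
Sgk1 (chr10:21993693-21993722, plus strand): atgcggaaaGAACAGAATGTTCtcggagat
Map3k6 (chr4:133240628-133240657, plus strand): cgaatagggGCACAGGCTGTTCcggaagtg
Mt1 (chr8:94178986-94179015, plus strand): gcactatagGGACATGATGTTCcacacgtc
Of these 3 genes, Sgk1 and Map3k6 had negative shifts and Mt1 a positive one. A match is a string in the window and not a measured binding site.

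Immediate early genes, which neurons transcribe within minutes of activity, showed a lower median ratio in EtOH animals. Of 25 members none was called in edgeR, 1 was higher and 8 lower at an unadjusted p under 0.05 (background 4.51% and 6.07%), and the median shift was -0.41 (1 higher and 9 lower with DESeq2). The median log2 ratio of the list was 0.52, 0.52 and 0.57 in the Control animals and 0.07, -0.11, 0.05 and -0.25 in the EtOH animals. All Control medians were above all EtOH medians. Npas4, an activity-dependent transcription factor, had log2 ratios of 0.86, -0.20 and 1.33 in the Control and -0.85, -0.82, -1.22 and -1.81 in the EtOH animals, a shift of -1.81 ± 0.43 (unadjusted p = 8.48e-04). Its TRAP level was 4.10 to 36.5 CPM in Control and 0.34 to 4.57 CPM in EtOH animals. The shift of Nr4a2, an orphan nuclear receptor, was -1.39 ± 0.43, that of Fos -1.28 ± 0.31 and that of Bdnf, the neurotrophin, -0.97 ± 0.39. Jun went against the list at 0.54 ± 0.21 (unadjusted p = 0.0212), with log2 ratios of -1.34, -1.59 and -1.29 in the Control and -0.35, -1.15, -1.06 and -0.94 in the EtOH animals. Without the animal block 0 members were higher and 2 lower. Egr1 (-0.12 ± 0.15), Fosb (0.01 ± 0.22) and Junb (-0.12 ± 0.21) had shifts within 1 SE of 0.

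The full palindrome TGACGTCA of the cAMP response element, to which the activity-dependent factor CREB binds, was found in the same promoter windows of 2 of 20 matched immediate early genes (10%), of 3.6% of 10451 matched tested genes and of 1.79% of all windows, searched on both strands. Both genes had lower ratios, Dusp1, a MAP kinase phosphatase, at -0.86 ± 0.25 and Btg2, an antiproliferative factor, at -1.18 ± 0.35. Capitals mark the match.
Dusp1 (chr17:26508597-26508626, minus strand): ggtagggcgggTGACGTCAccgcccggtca
Btg2 (chr1:134079303-134079332, minus strand): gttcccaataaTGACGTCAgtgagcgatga
Dusp1 is also a member of the glucocorticoid list.

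Cytosolic ribosomal proteins, whose messages share a common translational control, had a higher median ratio in EtOH animals. None of the 80 was called in edgeR, but 25 were higher and 1 lower at an unadjusted p under 0.05 (background 4.51% and 6.07%), and 76 had a shift above 0 (31 higher and 1 lower with DESeq2). The median shift was 0.41. Total-RNA of the list was level, with a median EtOH over Control log2 fold change of 0.03, and the median in TRAP was 0.50. The median log2 ratio was 0.13, -0.20 and 0.03 in the Control animals and -0.16, 0.49, 0.60 and 0.65 in EtOH animals 2, 5, 8 and 9. Animal 2 lay among the Controls and the other 3 above them. Without animals 2, 3 and 6, 68 members were higher and 0 lower at an unadjusted p under 0.05, and the median shift was 0.59. The count of higher members was 56 without animal 2 alone, 10 without EtOH animal 9, 6 without Control animal 4 and 6 without the animal block.

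Rps19, of the small subunit, had log2 ratios of 0.20, -0.28 and 0.03 in the Control and 0.26, 0.74, 1.00 and 1.11 in the EtOH animals, a shift of 0.80 ± 0.27 (unadjusted p = 0.00955), and Rpl31, of the large subunit, one of 0.96 ± 0.30 (unadjusted p = 0.00656). Rps19 passed the adjusted threshold when animals 2, 3 and 6 were left out. The 1 member with a lower ratio at that level was Rpl10a, the protein that carries the tag, at -0.39 ± 0.16 (unadjusted p = 0.0297), with log2 ratios of 0.71, 0.95 and 0.99 in the Control and 0.18, 0.43, 0.45 and 0.91 in the EtOH animals. Its counts may hold reads of the transgene as well as of the mouse gene. Ribosomal protein genes have many near-identical processed pseudogenes, which can share their reads.

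Messages of ribosomal proteins typically begin with a terminal oligopyrimidine (TOP) tract, and the starts of 4 members are shown for it. The tract was searched on the gene's strand as a C followed by at least 4 bases that are each C or T, starting no more than 5 bases from the RefSeq start. It was found in 29 of 59 matched members (49.2%), in 23.9% of 10451 matched tested genes and in 18.3% of all windows. Capitals mark the tract in 30 bases, given 5′ to 3′.
Rps10 (chr17:27635223-27635252, minus strand): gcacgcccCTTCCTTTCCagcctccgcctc
Fau (chr19:6057939-6057968, plus strand): ccccacttCTTCCTCTTTCTTgactccatc
Rps18 (chr17:33955644-33955673, minus strand): cttccgctCTCTCTTCCacaggaggcctac
Rpl15 (chr14:18270965-18270994, minus strand): aaagccttCTTCCTTTCCTCTggcggcagc
The shifts were 0.66 for Rps10, 0.56 for Fau and 0.67 for Rps18, and -0.46 for Rpl15, which holds as long a tract as Fau. Members with a tract in this window had a median shift of 0.46 and those without one 0.40. Over all matched genes the median shifts were 0.00 with a tract and -0.02 without one.

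Translation factors, which bring ribosomes to messages and move them along, were split. Of 50, 10 were higher and 2 lower at an unadjusted p under 0.05 (background 4.51% and 6.07%) and none was called in edgeR (10 and 2 with DESeq2), with a median shift of 0.11. The median log2 ratio was 0.00, 0.02 and 0.02 in the Control and 0.05, 0.22, 0.18 and 0.29 in the EtOH animals. The higher members numbered 1 without Control animal 4, 2 without Control animal 1, 4 without EtOH animal 9 and 2 without the animal block. Without EtOH animal 5 the median shift was 0.06. Among members at an unadjusted p under 0.05, Eif3f and Eif3h, subunits of the initiation factor eIF3, had the highest shifts (0.56 ± 0.22 and 0.53 ± 0.24). Eif4a2, a helicase of the cap-binding complex, and Eif4g2, a scaffold of the eIF4G family, had the lowest (-0.47 ± 0.18 and -0.35 ± 0.14). Eif4a2 stood at 0.04, 0.08 and -0.03 in the Control and -0.89, -0.12, -0.19 and -0.57 in the EtOH animals.

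**Figure D4:**
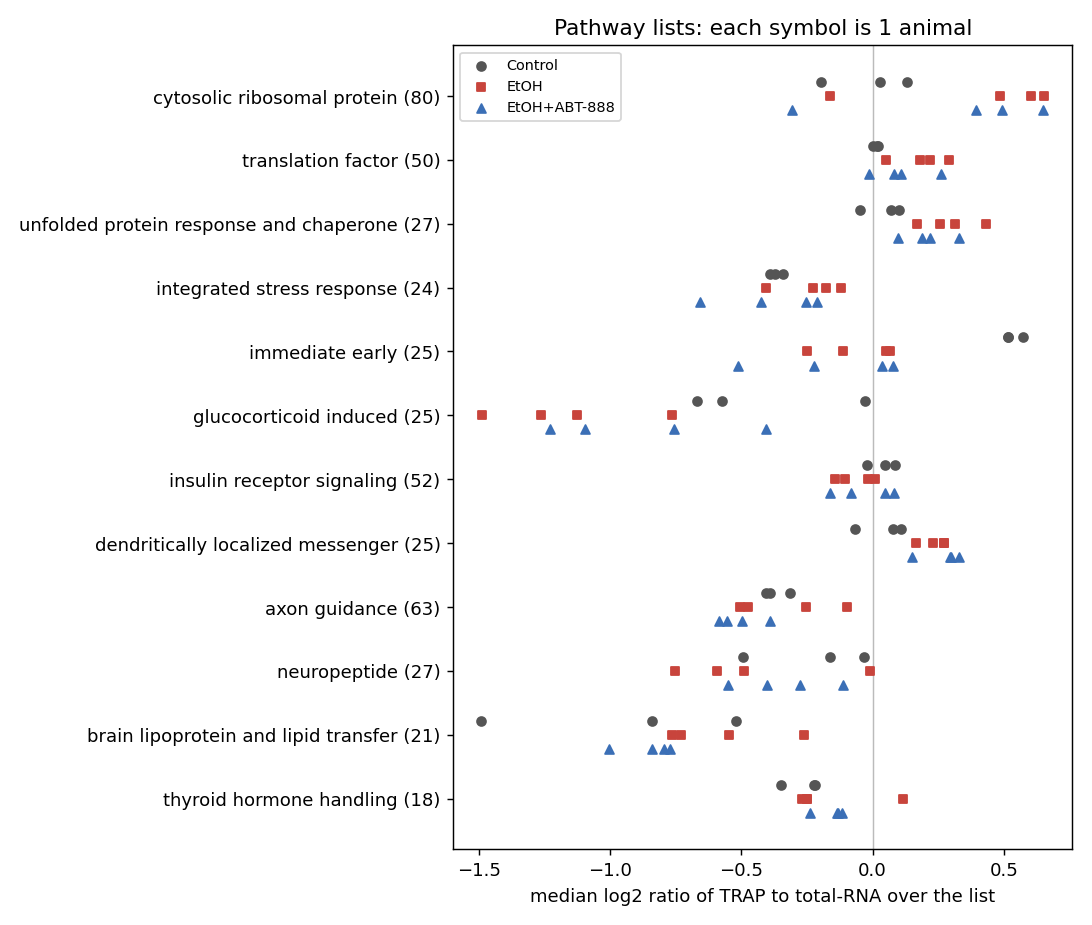
Median log2 ratio of TRAP to total-RNA over each pathway list (x axis), with the number of members tested in parentheses and 1 symbol for each animal by treatment. EtOH animals lie below Control animals for the glucocorticoid induced and immediate early lists, and 3 of 4 lie above them for the ribosomal proteins, the exception being animal 2 at -0.16.

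The cell type markers were described in the same way. The excitatory neuron markers, already low in TRAP, had a median shift of -0.70, with 0 higher and 3 lower of 12 at an unadjusted p under 0.05 (background 4.51% and 6.07%) and no call in edgeR (0 and 3 with DESeq2). Slc17a6, a vesicular glutamate transporter, stood at -0.73, -1.32 and -1.17 in the Control and -1.90, -3.25, -2.70 and -2.05 in the EtOH animals (-1.37 ± 0.35, unadjusted p = 0.00159), and Tbr1, a transcription factor of deep cortical layers, shifted by -1.28 ± 0.36 (unadjusted p = 0.0031). The shift of Camk2a was 0.25 ± 0.15. The median shift of the list was -0.42 without EtOH animal 8 and -0.44 without animal 5, which had the lowest ratios, and -1.03 without animal 9, with 7 members lower. The part of these markers in the shift of any other transcript was not tested beyond the covariate fit given above.

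Deep layer markers had a median shift of -0.39, with list medians of 0.35, 0.78 and 0.47 in the Control and -0.10, -1.04, -0.43 and -0.80 in the EtOH animals. The median shift was -0.14 without EtOH animal 8 and -0.18 without Control animal 7. Hs3st4, a heparan sulfate sulfotransferase, stood at 0.35, 0.81 and 0.47 in the Control and -0.10, -0.44, -0.43 and -0.16 in the EtOH animals (-0.83 ± 0.18, unadjusted p = 3.82e-04), and Nxph4, a secreted neurexophilin, shifted by -1.92 ± 0.56. Upper layer markers were divided, with Lamp5 at 0.55 ± 0.11 (unadjusted p = 2.25e-04), the called Wfs1 above 0, and the nuclear receptor gene Rorb at -0.95 ± 0.43. Lamp5 had log2 ratios of -0.04, 0.01 and 0.12 in the Control and 0.67, 0.40, 0.58 and 0.67 in the EtOH animals, with a fall in total-RNA (log2 fold change -0.62, adjusted p = 0.0025).

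Among interneuron markers, Adarb2 (-1.02 ± 0.25) and Reln (-0.55 ± 0.19) were lower and Pvalb, the calcium buffer of fast-spiking cells, was higher (0.80 ± 0.32), each at an unadjusted p under 0.05. The striatal projection neuron markers, with the highest ratios of any list, had a median shift of -0.18 (-0.30 to -0.08 without 1 animal), with 0 of 12 higher and 1 lower at an unadjusted p under 0.05 (background 6.07%). The lower members numbered 3 without EtOH animal 8 and 0 without Control animal 1. Their ratios overlapped between the groups for every one of the 12 (6.05% of all transcripts did not overlap with EtOH above and 6.69% with EtOH below). Astrocyte (-0.13), oligodendrocyte (-0.12) and endothelial and mural markers (0.18) held no member at an unadjusted p under 0.05. The sign of each of these medians rested on single animals, at 0.19 for astrocyte and 0.24 for oligodendrocyte markers without EtOH animal 5 and -0.42 for endothelial and mural markers without EtOH animal 2. Without animal 2, 3 astrocyte markers were lower at that p.

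Microglia markers had a median shift of 0.40 with 2 of 15 higher at an unadjusted p under 0.05 (background 4.51%), among them Selplg (1.88 ± 0.50). The median was -0.11 without EtOH animal 2, 0.14 without Control animal 4 and 0.19 with DESeq2, so its sign rested on animal 2. The higher members numbered 1 without Control animal 1, Control animal 4 or EtOH animal 2, and 0 without the animal block. In total-RNA 11 of the 15 were called lower, with a median log2 fold change of -1.51, while in TRAP 1 was (17.6% and 5.24% of all transcripts were called in these pools, in either direction). Their summed CPM was 488.4 to 514.5 in Control and 224.5 to 345.2 in EtOH total-RNA, and 32.1 to 60.8 and 16.5 to 77.4 CPM in TRAP. The higher ratio of Selplg, a leukocyte adhesion ligand at -4.75, -5.10 and -3.66 in the Control and -2.19, -2.89, -2.30 and -2.92 in the EtOH animals, came with a fall in total-RNA (log2 fold change -1.51, adjusted p = 0.0011).

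Other members of the pathways of the called transcripts are given by the lists to which those transcripts belong. Of 18 thyroid hormone handling genes tested, Crym was called, and 3 were higher and 2 lower at an unadjusted p under 0.05 (background 4.51% and 6.07%), the latter 0 without any 1 of the 3 Control animals or EtOH animal 9. The hormone receptor corepressor gene Hr (-0.47 ± 0.20) and the retinoid receptor gene Rxrg (-0.44 ± 0.19) were the lower members, and the median over the list was -0.04.

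Of 21 genes of brain lipoprotein and lipid transfer, Pltp was the 1 at an unadjusted p under 0.05, near the background of 4.51%, and 17 had a shift above 0, as did 47.95% of all transcripts (median 0.13). In the extracellular matrix list of 56 tested genes, Fbln5 was called, 3 were higher and 2 lower at an unadjusted p under 0.05 (background 4.51% and 6.07%), and among these the collagen VI genes Col6a1 (1.06 ± 0.31) and Col6a2 (1.08 ± 0.37) had the highest shifts. Hapln4, a link protein of perineuronal nets, was lower (-0.78 ± 0.32), and without EtOH animal 2 the members lower at that p numbered 7 in place of 2. The list median was -0.11.

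In axon guidance, with 63 genes tested, 5 were higher and 9 lower at an unadjusted p under 0.05 (background 4.51% and 6.07%) and the median was 0.01. Without Control animal 1 the higher members numbered 2 and without Control animal 4 they numbered 3. Ntng2, the paralog of the called Ntng1, was lower (-1.09 ± 0.39, unadjusted p = 0.0135), at 0.25, -0.78 and -0.04 in the Control and -0.86, -2.46, -0.92 and -0.98 in the EtOH animals. The ligand Ntn1 (1.33 ± 0.46) and the netrin receptor gene Unc5b (1.06 ± 0.39) were higher. None of the other pathway lists held 1 of the 14. The medians of these lists moved with single animals, to 0.05 for the lipid transfer list without EtOH animal 2, and to 0.06, 0.12 and 0.04 for the matrix, axon guidance and thyroid hormone lists without EtOH animal 5.

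Of 27 genes of the unfolded protein response and chaperones 3 were higher at an unadjusted p under 0.05 and none lower (background 4.51% and 6.07%), among them the protein disulfide isomerase gene Pdia6 (0.53 ± 0.14) and Canx, the folding chaperone calnexin (0.39 ± 0.13). For Pdia6 the log2 ratio was -0.03, 0.07 and 0.06 in the Control and 0.62, 0.50, 0.38 and 0.76 in the EtOH animals, with a fall in total-RNA (log2 fold change -0.69, adjusted p = 0.00127). Of 24 integrated stress response genes 3 were higher (among them Atf5 at 0.85 ± 0.38 and Ddit3 at 0.50 ± 0.23) and 1 lower (Ppp1r15a, -0.53 ± 0.22), against the same background. Without Control animal 4 none was at that p in either direction in edgeR, and without Control animal 1, EtOH animal 2 or EtOH animal 9 the higher members numbered 1. The list medians were 0.14 and 0.02, and without EtOH animal 5 that of the unfolded protein response was 0.05. That of the integrated stress response was -0.05 without Control animal 1 and 0.12 without Control animal 7.

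Of 52 insulin receptor signalling genes 3 were higher and 7 lower at an unadjusted p under 0.05 (background 4.51% and 6.07%), with Ptpn6, a tyrosine phosphatase, at 2.62 ± 0.75. Without Control animal 4 the counts were 1 and 2 and without Control animal 1 they were 1 and 4. Ptpn6 stood at -2.94, -3.75 and -2.18 in the Control and 0.49, -0.40, -1.22 and -0.57 in the EtOH animals, but its exons overlap those of Gm20531 on the other strand. Its TRAP level was low, at 0.33 to 0.63 CPM in Control and 0.95 to 4.29 CPM in EtOH animals, so few reads set these ratios. In the neuropeptide list (27 tested), Nts, neurotensin, was lower (-1.31 ± 0.34, unadjusted p = 0.00155) and Scg3, a granin of secretory granules, was higher (0.53 ± 0.15). Of 25 messages known to travel into dendrites, 3 were higher, Shank2 (0.50 ± 0.18) and Iqsec2 (0.41 ± 0.15) among them, and 3 lower, with the scaffold gene Shank1 at -0.89 ± 0.30 (background 4.51% and 6.07%). These counts turned on single animals, with 0 higher without Control animal 4, 6 higher without EtOH animal 5 and 5 without EtOH animal 8, and with 0 lower without Control animal 1 or 7. In a list of 19 genes drawn up as nuclear-retained long noncoding RNAs, of which Snhg11 is annotated as protein-coding and Snhg12 had a Control log2 ratio of 0.24, the median shift was -0.31, but 0.02 without Control animal 4 and -0.18 without EtOH animal 9, with Snhg11 at -0.72 ± 0.31, Rian at -0.44 ± 0.19 and Snhg12 at 0.63 ± 0.22.

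The other transcripts that the study names and that are given here were not called for a shift in the ratio. Most were chosen on these samples, while S100b and Camk2a were markers measured in preliminary pull-downs. Irs2 (0.27 ± 0.18) and Rasd1 (0.03 ± 0.36) were called higher in both pools, Rasd1 by 2.12 in TRAP and 2.17 in total-RNA on the log2 scale. Mapk11 (-0.93 ± 0.51), Mycn (-1.11 ± 0.57) and Hltf (-0.54 ± 0.31) were called lower in both pools. Rngtt (-0.59 ± 0.24), Scnn1a (0.93 ± 0.42) and Mapk8ip2 (0.49 ± 0.18) reached an unadjusted p under 0.05. Irs4 (0.61 ± 0.91), Pla2g3 (-0.46 ± 0.71), Stxbp4 (-0.55 ± 0.30) and S100b (0.39 ± 0.39) did not.

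In the animals given EtOH + ABT-888, tested against the same Control animals, no transcript passed the adjusted threshold in edgeR, and 1035 (7.36%) had an unadjusted p under 0.05. Crym and Camk1g came close in that test, each with an adjusted p of 0.0511. For all 14 called transcripts the shift had the same sign as with EtOH. It was 1.48 ± 0.22 for Crym, 1.16 ± 0.17 for Camk1g, 1.91 ± 0.37 for Pltp and -1.39 ± 0.25 for Spon1. The 14 were chosen by their EtOH shift, so that a smaller value in a further comparison with the same Controls can come from that choice, and nothing is read from the 13 that were smaller in size, among them Fbln5 (-1.30 ± 0.37), Setdb2 (-1.17 ± 0.23) and Adipor2 (-0.49 ± 0.17). The difference between EtOH + ABT-888 and EtOH was called for no transcript (408 at an unadjusted p under 0.05), and among the 14 it was farthest from 0 for Fbln5, at 1.25 ± 0.36 (unadjusted p = 0.0031), with a difference of 0.58 ± 0.16 for Adipor2 (unadjusted p = 0.00238). Because the comparisons share animals, their values are given side by side and no overlap is read from them. The list medians of EtOH + ABT-888 animals 3, 6, 10 and 11 were -0.31, 0.39, 0.65 and 0.49 for the ribosomal proteins, -0.41, -1.10, -1.23 and -0.76 for the glucocorticoid list and 0.08, -0.51, 0.03 and -0.22 for the immediate early genes. Animal 3 had a ribosomal protein median below those of the 3 Controls, and the other 3 animals lay above them.

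Exons of Hs3st4, Reln, Rpl10a, Rpl31, Eif4a2, Pdia6, Atf5, Ddit3, Ppp1r15a, Jun, Bdnf, Shank1, Irs2, Irs4 and Pla2g3 overlap a gene on the other strand, and those of Ntng2, Eif4g2, Snhg11, Snhg12 and Rian one on the same strand, so their counts are uncertain to that extent.

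The shift also differed with the base composition of the transcript. Over 12986 protein-coding genes in 5 equal bins of exonic GC content, the median shift was -0.14 in the lowest bin (31.0 to 43.9% GC) and 0.06 in the highest (55.5 to 72.8%). In the lowest bin 31 genes were higher and 289 lower at an unadjusted p under 0.05, and in the highest 190 were higher and 102 lower. In all 7 animals the ratio was higher in the highest bin than in the lowest. The median log2 ratio in the lowest bin was -0.11, -0.13 and -0.21 in the Control and -0.33, -0.22, -0.13 and -0.49 in the EtOH animals, and in the highest bin 0.23, 0.34 and 0.34 against 0.56, 0.27, 0.27 and 0.54. The difference between the bins was largest in EtOH animals 2 and 9, and in the highest bin animals 5 and 8 lay among the Controls.

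With an offset for GC content in each library, fitted with the animal block, all 14 transcripts were still called, among 18. The offset takes out the trend with GC in each library, so the level bins (medians of -0.03 to -0.01) follow from it. In that fit 1522 of 14072 transcripts had an unadjusted p under 0.05, in either direction. At that p 25 ribosomal proteins were higher and 1 lower, the glucocorticoid list had 1 higher and 11 lower and the immediate early genes 1 and 11. The median shift also differed by total exon length, from 0.06 in the shortest bin to -0.07 in the longest, and varied between -0.03 and -0.01 over 5 bins of coding length.

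**Figure D5:**
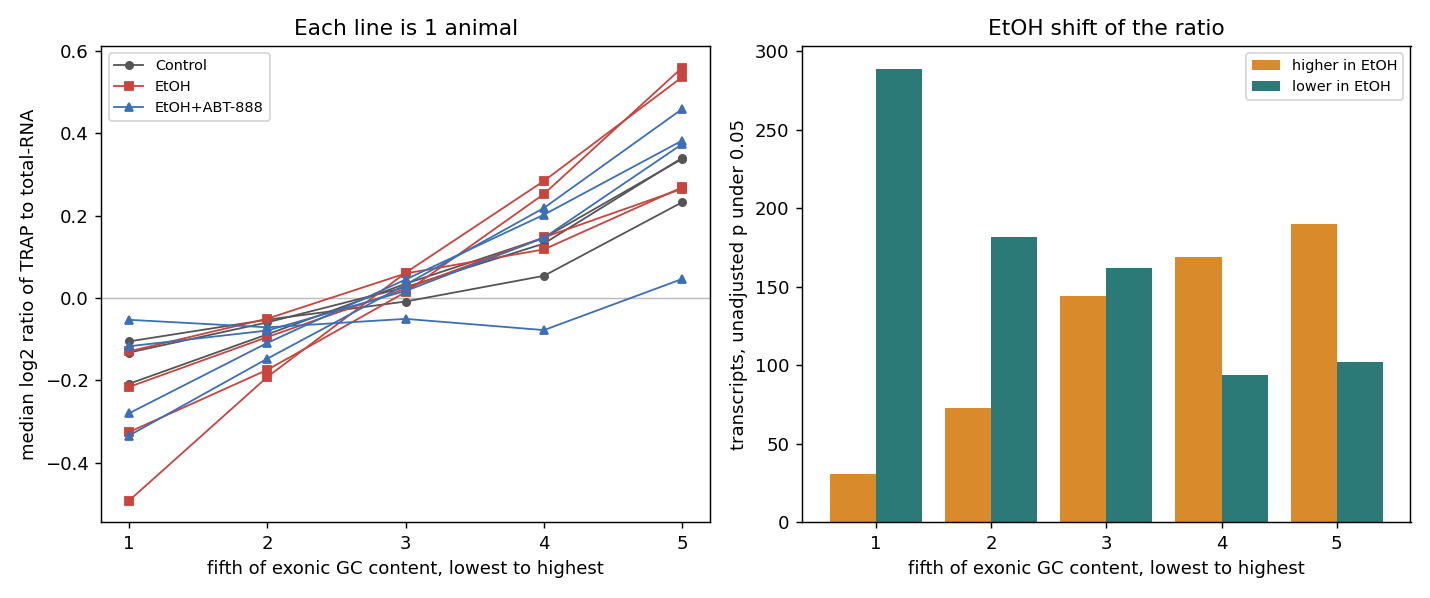
Left, median log2 ratio of TRAP to total-RNA of protein-coding genes in 5 equal bins of exonic GC content (x axis), with 1 line for each animal by treatment. Right, number of genes in each bin with a higher or lower ratio in EtOH at an unadjusted p under 0.05; 289 of the lowest bin were lower and 190 of the highest bin were higher.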

How the data were processed

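RNA of the PFC of 11 mice was sequenced as 22 libraries, 1 TRAP and 1 total-RNA library from each animal, after depletion of ribosomal RNA. The deposited table holds raw read counts per gene and library: the authors aligned reads to mm10 with STAR and counted them with featureCounts, in versions that are not given in the sources used here, and no replicate was pooled. From these counts, genes with at least 500 counts in all and detected in at least 3 libraries (14072 of 39056) were tested in edgeR 4.0.16 (R 4.3.3) with TMM factors and the quasi-likelihood test. The model held 1 coefficient per animal, the RNA pool, and the pool by treatment terms, over all 22 libraries, with Benjamini-Hochberg adjustment and a threshold of 0.05. CPM values were scaled by the TMM factors, with a prior count of 1 on the log2 scale.

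The labels give the same animal number to both libraries of a mouse, and the deviations of the pair from their group means correlated at r of 0.102 to 0.622 over genes in all 11 animals. Alternatives were the model without the block, the 14 Control and EtOH libraries alone, RLE factors, DESeq2 1.42.0, the likelihood ratio test, limma 3.58.1 on differences per animal, other filters and thresholds, each Control and EtOH animal left out in turn, and a glial marker covariate. A GC offset, an excitatory marker covariate and the fit without animals 2, 3 and 6 were added after the data were seen. The code was tested on simulated data.

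The members, lists and tests were chosen with earlier results of these data known. Named transcripts are those with an adjusted p under 0.05, filled to 24 with protein-coding genes of smallest p whose ratios did not overlap, the transcripts the study names, and in each list the 2 highest and 2 lowest shifts at an unadjusted p under 0.05. Slc17a7, Neurod6, Nrgn, Baiap2, Fkbp5, Ddit4, Fos, Dusp1, Btg2, Egr1, Fosb, Junb, Rps10, Fau, Rps18 and Rpl15 were named after their values were seen. Some transcripts that this rule names are not reported here. Gene names and positions came from GENCODE M21 (GRCm38, the build of mm10), and promoter windows from RefSeq. Read depth limits the precision of low transcripts, and p-values measure the spread between these animals.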

Additional observations from a re-analysis of the deposited data

Results flagged for a closer look

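Among 104 sets of 4 EtOH or 4 EtOH + ABT-888 animals (24 transcripts and 28 lists in each treatment), 5 held 1 animal that stood apart by Dixon's criterion, where chance gives about 1 in 20. Among the EtOH animals, the gap to the next animal took 0.867 of the range for Prex1, where animal 2 had a log2 ratio of 0.87 and the others 0.21 to 0.30. The corresponding share was 0.880 for Pld5, where animal 8 had 1.31 and the others 0.32 to 0.44. For the thyroid hormone handling list it was 0.947, with a median of 0.11 in animal 2 and -0.27 to -0.25 in the others. Among the EtOH + ABT-888 animals it was 0.892 for Prex1, with 0.07 in animal 3 and 0.12 to 0.13 in the others, and 0.852 for the thyroid hormone handling list, with -0.24 in animal 10 and -0.13 to -0.12 in the others. Without animal 2 the shift of Prex1 was still called.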

How the results depend on the processing

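Of 14 calls with the animal block, the model with no replicate block gave 3 (Crym, Fbln5 and Pltp, all among the 14). The number of calls was 157 with DESeq2, 147 with the likelihood ratio test, 290 with no filter on low counts and 44 with the glial and vascular marker covariate, each of which held all 14. It was 3 with limma on differences per animal, 2 at an adjusted p under 0.01 and 24 under 0.1, and 8 with the excitatory marker covariate. With animals 2, 3 and 6 left out it was 21. Leaving out 1 animal at a time gave 1 to 19 calls: 1 without Control animal 1 or 4, 6 without Control animal 7, 9, 3, 19 and 11 without EtOH animals 2, 5, 8 and 9. RLE factors (14), filterByExpr (16), the 14 libraries alone (17) and the GC offset (18) stayed within 1.5 times. No called shift changed direction. Among uncalled shifts, that of Pla2g3 ranged from -0.76 to 0.16 over the fits without 1 animal, positive without Control animal 7, and that of Rasd1 from -0.25 to 0.36, negative without Control animals 4 or 7 or EtOH animal 9. With no replicate block Rasd1 was at -0.0602 and with the GC offset at -0.0352, and Mapk11 was at 0.0772 with the excitatory marker covariate, each of the opposite sign to its value in the report. The causes were not tested. With 3 Control animals, leaving out 1 leaves 2 to set their spread.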

Other observations

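Of 563 processed pseudogenes tested, 18 had a higher and 4 a lower ratio in EtOH animals at an unadjusted p under 0.05. Over all transcripts tested, 4.51% were higher and 6.07% lower at that p. None of the pseudogenes was called by edgeR, and their median shift was 0.18. Of 12986 protein-coding genes, 607 were higher and 829 lower at that p, with a median of -0.02. Reads of a pseudogene may come from the parent gene, and which parents these had was not tested. The 245 lincRNAs had a median shift of -0.15, with 7 higher and 16 lower (background 4.51% and 6.07%). The 13 messages encoded in mitochondria, which cytosolic ribosomes do not translate, had median log2 ratios of -4.07, -5.64 and -4.38 in the Control and -2.72, -5.43, -4.78 and -5.16 in the EtOH animals. The highest of these belonged to animal 2, which also kept the most glial RNA. Blood (0.26) and choroid plexus (-0.20) lists held no member at an unadjusted p under 0.05, and their medians changed sign without EtOH animal 2 (blood, -0.02) or EtOH animal 5 (choroid plexus, 0.02).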
